A study of Mus musculus with 4 samples.

Results

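The barcodes described here carry the transcripts of migratory dendritic cells, which are dendritic cells that have matured and turned towards the lymphatics. They were taken from single-cell RNA sequencing of colon polyps in mice, in which each barcode stands for 1 droplet. A barcode was a member where it held at least 2 molecules of Fscn1 and at least 1 of Ccr7, none of the T cell gene Cd3e or the B cell gene Cd79a, and less than 0.05% of its molecules from the macrophage genes C1qa, C1qb and C1qc. The rule found 224 members among 14198 barcodes that passed the quality filters, a share of 1.58% (95% exact binomial interval 1.38 to 1.80%). Members were thus chosen by the measured UMI counts of these 7 genes, whose levels describe the choice and are not a finding. Every ratio between members and other barcodes below comes from the same cells and is likewise a description.

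The study sorted cells from colon polyps into a CD45+ immune fraction and a CD45- non-immune fraction, by flow cytometry with CD45 and EPCAM. Each fraction came from Egfr fl/fl mice and from EgfrΔMYL mice, giving 4 samples in 4 groups of 1. The name EgfrΔMYL denotes loss of Egfr in the myeloid lineage, and the driver of the deletion, the number of animals pooled and their age were not given in the sources used here. The mice of every group were female C57BL/6 animals given 12.5 mg/kg azoxymethane (AOM), a carcinogen, and then 3 cycles of dextran sodium sulphate (DSS), which injures the colon lining. DSS was given at 2.5% in the first 2 cycles and 2% in the third, and the polyps were collected 30 days after the last cycle. There was thus no untreated colon, normal mucosa or lymph node to compare with.

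The deposited matrix pools the 4 libraries, and no source used here pairs a library suffix with a sample. The members were therefore not compared between genotypes or between sorted fractions. Libraries 1 to 4 are named by suffix and stand as single unassigned libraries, which held 2, 5, 91 and 126 members. These were 0.337%, 0.293%, 2.02% (95% exact binomial interval 1.63 to 2.47%) and 1.71% (1.42 to 2.03%) of the passing barcodes of each library, in that order. Libraries 3 and 4 thus held 217 of the members, and their intervals overlap.

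Members had a median of 10003 molecules (range 500 to 36910) and 2480 genes, and the other 13974 passing barcodes had 4884 molecules and 1617 genes. The molecules are unique molecular identifiers (UMIs), and levels below are CPM, the UMIs of a gene summed over a set of barcodes and scaled to a total of 1000000 UMIs for that set. The members gave 2247775 UMIs in all. Those of libraries 1 and 2 gave 13066 and 32124 of these, so their CPM values below often rest on a few UMIs. There are no replicates, so no test was made. Each interval covers counting error only. A gene is called higher where its CPM is at least 2-fold above that of the comparison set with at least 10 UMIs in the members, and lower where it is at least 2-fold below with at least 10 UMIs expected. Against all other barcodes 11.5% of 10633 genes were higher by this rule and 31.7% were lower, and the median log2 ratio of all these genes was -0.34. Shares of cells with a UMI are set beside the share in 1499 B-cell barcodes (median 4295 UMIs). For genes that B cells do not transcribe this share bounds the free RNA, and for genes such as Relb, Cd86 and Cd274, which B cells transcribe themselves, it does not separate the sources. Because these are shallower, the shares after thinning to 1000 UMIs per barcode (218 members and 1493 B-cell barcodes) are given as thinned shares.

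Dendritic cells take up antigen in tissue, and on maturation they raise the chemokine receptor CCR7, which steers them along the lymphatics to the draining lymph node. The mature state is known for the actin bundling protein fascin (Fscn1), chemokines that attract T cells, costimulatory ligands and non-canonical NF-kB signalling through RelB, and for a loss of phagocytic receptors. Many of the same cells carry regulatory molecules, such as PD-L1 (Cd274) and CD200. In tumours this state is often described by markers of both kinds.

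The markers fixed for the label were all high. In the GENCODE annotation of GRCm38 the 5 genes lie on separate chromosomes: Fscn1 at chr5:142960343-142973185 (plus strand), Ccr7 at chr11:99144196-99155077 (minus), Ccl22 at chr8:94745590-94751699 (plus), Cacnb3 at chr15:98630840-98644529 (plus) and Cd200 at chr16:45382135-45409053 (minus). Ccl22, a chemokine that draws CCR4-bearing T cells, had 306, 342, 1905 and 2262 CPM in the members of libraries 1 to 4, against 0.154, 0.077, 29.2 and 50.2 CPM in the other barcodes of the same libraries. Over all libraries this is 2067 CPM against 35.7, a log2 ratio of 5.86, and Ccl22 was seen in 83.9% of members and 1.40% of B-cell barcodes (thinned shares 51.4% and 0.402%). Cacnb3, a calcium channel subunit, had 1148, 405, 662 and 513 CPM in the members by library, and the pooled 580 CPM was set against 6.28 in the others (log2 ratio 6.53). Cd200, a ligand that restrains myeloid cells, had 765, 93.4, 1035 and 1000 CPM by library and a pooled log2 ratio of 5.78. For the 3 genes the members of each library lay above the others of that library, though libraries 1 and 2 held only 2 and 5 members. The genes used to choose members had 1808 CPM of Fscn1 against 7.41 in the others and 2769 CPM of Ccr7 against 100.

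Among 6 genes of dendritic cells in general, Flt3 (184 CPM, log2 ratio 4.00), the receptor for the growth factor that sustains them, Zbtb46 (68.5 CPM, 3.86), a transcription factor of conventional dendritic cells, and Dpp4 (139 CPM, 2.56) were higher. Itgax, which encodes CD11c, was lower, at 20.9 CPM against 83.6. Itgax was seen in 8.48% of members and 3.07% of B-cell barcodes (thinned 0.917% and 0.804%), and its log2 ratio moved to -1.30 without library 4. With no limit on C1q the Itgax ratio was -1.23. The other 2 genes, H2-Ab1 and Cd74, were neither higher nor lower, so 3 of the 6 genes went with the label. Summed over the list, members had 11198 CPM against 13103 in the others.

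The genes that define the dendritic subtypes were mixed in the members. The type 1 list summed to 1021 CPM against 414 in the others, the type 2 list to 143 against 744 and the plasmacytoid list to 278 against 477. The type 1 sum was 4964 CPM in 92 barcodes chosen by Xcr1 and Clec9a, genes of that list, and 960 CPM in 166 barcodes chosen by Cd209a. It was thus near the level of the Cd209a set, and Irf8 and Batf3 gave most of it in members. Of 10 genes of Xcr1+ type 1 dendritic cells, the transcription factors Batf3 (230 CPM, log2 ratio 3.2) and Irf8 (718 CPM, 1.91) were higher and 5 were lower. Without library 4 the Batf3 ratio was 4.17. Xcr1 itself had 22 UMIs, of which 20 lay in 1 member of library 3. Of 9 genes of Cd209a+ type 2 dendritic cells 8 were lower. Siglech and Cox6a2, which mark plasmacytoid dendritic cells, had no UMI in any member, which allows up to 1.33 CPM.

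Markers of other lineages were low in the members as whole lists. All the genes of the macrophage (9), monocyte (7), neutrophil (7), T cell (8), B cell (7), plasma cell (6), epithelial (6) and erythroid (5) lists were lower than in the other barcodes. Their summed levels were 105 CPM against 10015 for macrophages, 161 against 1139 for monocytes, 340 against 15162 for neutrophils, 10.2 against 759 for T cells and 113 against 1461 for epithelium. Plasma cell genes summed to 196 CPM against 9272. In some lists single barcodes held much of what remained, with 1 member carrying 404 of the 765 neutrophil UMIs, 1 carrying 206 of the 253 epithelial UMIs and 1 carrying 39 of the 53 erythroid UMIs. Monocyte UMIs were more spread, with 9.42% of 361 in the richest member. At least 3 UMIs of the monocyte, plasma cell and neutrophil lists were held by 29, 60 and 32 members. In the natural killer and innate lymphoid list 2 of 4 genes were lower, but Il7r, the receptor chain for IL-7 and TSLP, was higher (424 CPM, log2 ratio 1.99). Il7r was seen in 83.0% of members and 1.53% of B-cell barcodes (thinned 33.9% and 0.201%). Cd3e and Cd79a are at 0 by the rule, and the macrophage list is held down by it. Some myeloid genes of other lists, given below, are held down by the C1q limit of the rule as well.

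The genes with the greatest ratio to the other barcodes, under a rule of at least 50 UMIs and a UMI in at least 25% of members, were led by a gene outside every list. Nudt17, a nudix hydrolase gene, headed it with 236 CPM against 0.905, a log2 ratio of 8.03 (95% interval 7.73 to 8.34). Its CPM in the members of libraries 1 to 4 was 153, 62.3, 362 and 140, against 0.612 to 1.44 CPM in the others. The values of libraries 1 and 2 lay above the others as well but rest on few UMIs. Strip2 (142 CPM, 6.69), Synpo2 (73 CPM, 6.61) and Tmem150c (89.0 CPM, 6.54) followed Fscn1 in the order. The Tmem150c ratio was 7.33 without library 2 and the Slc4a8 ratio below 6.31 without library 4. Slc4a8, a bicarbonate transporter gene (150 CPM, 5.65), Mreg, which encodes melanoregulin (154 CPM, 5.62), and Eno3, a glycolytic enolase (234 CPM, 5.32), also stood among the 25 greatest ratios. Of wider expression was Tbc1d4, a regulator of glucose transporter traffic, with 1493 CPM in members and a UMI in 94.6% of them (log2 ratio 5.17). B-cell barcodes had a UMI of it in 1.87% (thinned shares 65.1% and 0.268%).

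Fabp5, a fatty acid binding protein, had 1913, 2490, 8835 and 8539 CPM in the members by library. The others of the same libraries had 45.8, 57.3, 333 and 372 CPM, so that the pooled log2 ratio was 4.79. Serpinb6b, an intracellular protease inhibitor, had 1760, 405, 1085 and 1078 CPM by library (log2 ratio 5.37), and its reads may be shared with close copies of the same family. At the other end was Spink4 (-8.17), a goblet cell gene whose ratio was -7.57 without library 1 and -4.08 without libraries 1 and 2.

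**Figure D1:**
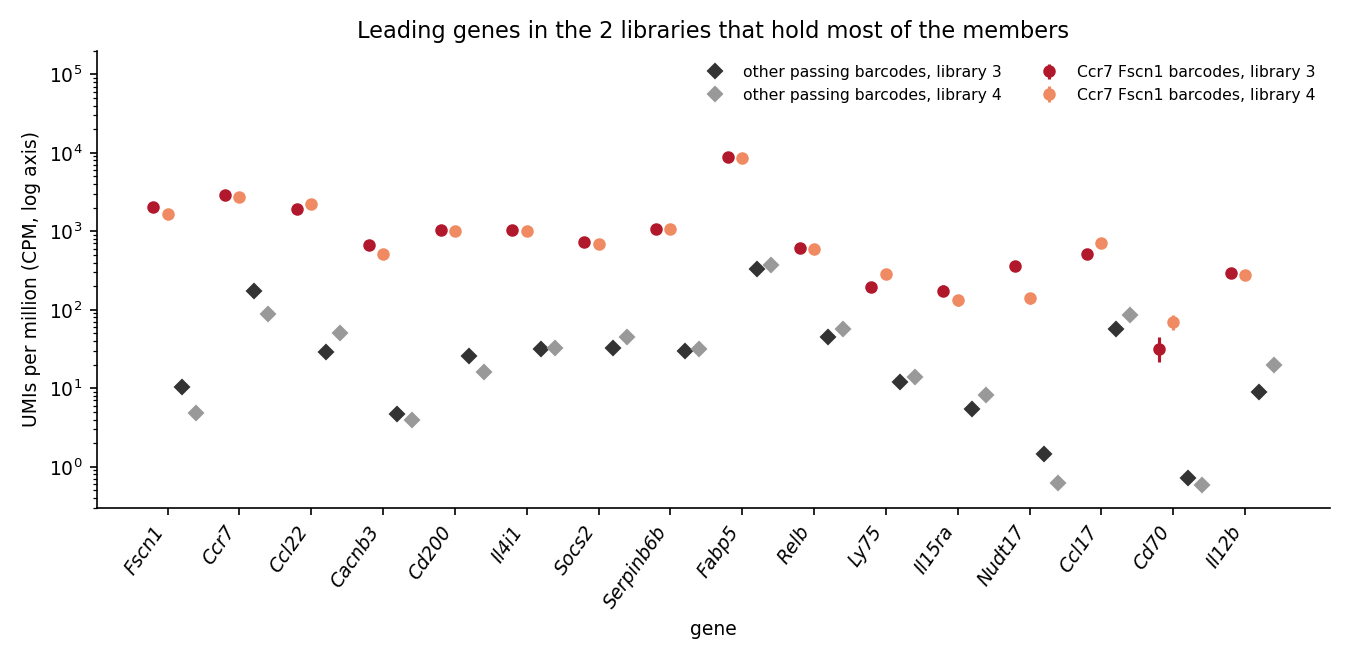
CPM on a log axis of 16 genes in the members and in the other barcodes of libraries 3 and 4, with bars for the 95% Poisson interval. In each library the members lie above the others for every gene shown, from Nudt17 at 362 against 1.44 CPM in library 3 to Cd70 at 69.7 against 0.581 in library 4.

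The edges of the rule were graded. The 15 members with exactly 2 Fscn1 UMIs had 4155 CPM of Ccl22 and 350 of Cacnb3, and the 21 barcodes left out with 1 Fscn1 UMI had 1249 and 263 CPM. The 41 barcodes that met the Fscn1 rule but had no Ccr7 had 11.8 CPM of Ccl22 and 3027 CPM of Epcam, an epithelial adhesion gene. Of the members, the 12 with a single Ccr7 UMI had 614 CPM of Ccl22 and also 2384 CPM of Epcam. Epithelial transcripts thus reached inside the Ccr7 edge, and 101 of the 117 Epcam UMIs of all members lay in 1 barcode. The 13 barcodes left out by the macrophage limit alone had 1037 CPM of Ccl22 and 191 of Cacnb3, and the 52 members that held some C1q transcript had 2521 and 483 CPM.

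Chemokines stood on both sides. Of 18 chemokine genes measured, 4 were higher in members than in all other barcodes and 13 lower, with a median log2 ratio of -3.58. Beside Ccl22, Ccl17, the other CCR4 ligand, was higher at 614 CPM against 62.8 (log2 ratio 3.29). By library its members had 0, 93.4, 509 and 719 CPM, and 46.4% of members had a UMI against 0.534% of B-cell barcodes (thinned 24.3% and 0.067%). Ccl5, which attracts effector T cells, had 6658, 1245, 5249 and 2543 CPM by library and a pooled log2 ratio of 3.35. It was seen in 81.2% of members and 4.07% of B-cell barcodes (thinned 61% and 0.670%). Cxcl16, a membrane-bound ligand for CXCR6, was seen in 96.0% of members and 4.67% of B-cell barcodes (thinned 61% and 1.47%). Its members had 623 to 1204 CPM by library (log2 ratio 2.05). Cxcl9, a ligand for CXCR3, was neither higher nor lower (190 CPM, 0.17, or -0.84 without library 4). Without library 4 the ratios were 6.59 for Ccl22, 4.37 for Ccl5 and 2.72 for Cxcl16. The same 4 genes were higher and the same 13 lower within library 3, where 15.6% of 8077 genes were higher and 24.5% lower, and within library 4, where 15.2% of 8508 were higher and 24.6% lower.

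Of 14 chemokine receptors, Ccr7 alone was higher than in all other barcodes and 9 were lower, with a median of -2.24. The lower ones included Cx3cr1, the fractalkine receptor of resident macrophages and their monocyte precursors, with 3 UMIs, all in library 4 (-6.50, 95% interval -8.77 to -4.95). With no limit on C1q the Cx3cr1 ratio was -2.40.

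Genes of adhesion and movement were mostly higher, with 13 of 22 higher, 5 lower and a median log2 ratio of 1.58. Fscn1 itself belongs to this list. Tmem123, a membrane mucin, had 1607, 498, 1713 and 1482 CPM in members by library (log2 ratio 4.07), and Myo1g, an unconventional myosin of leukocytes, had 765, 156, 512 and 526 CPM (3.33). In each library both lay above the others, which reached 104 and 61.4 CPM. Cdc42ep3 (3.17), an effector of the GTPase CDC42, Nrp2 (2.73), a neuropilin, and Swap70 (2.70), which links the membrane to actin, were also higher. The actin-associated Marcks (1283 CPM, 1.94) and Actg1 (9609 CPM, 1.41) were higher too. The lower genes included the integrins Itgb7, Itgae, Itgax and Itgam. All but 1 of the 13 higher genes, and all 5 lower, were called within both library 3 and library 4.

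**Figure D2:**
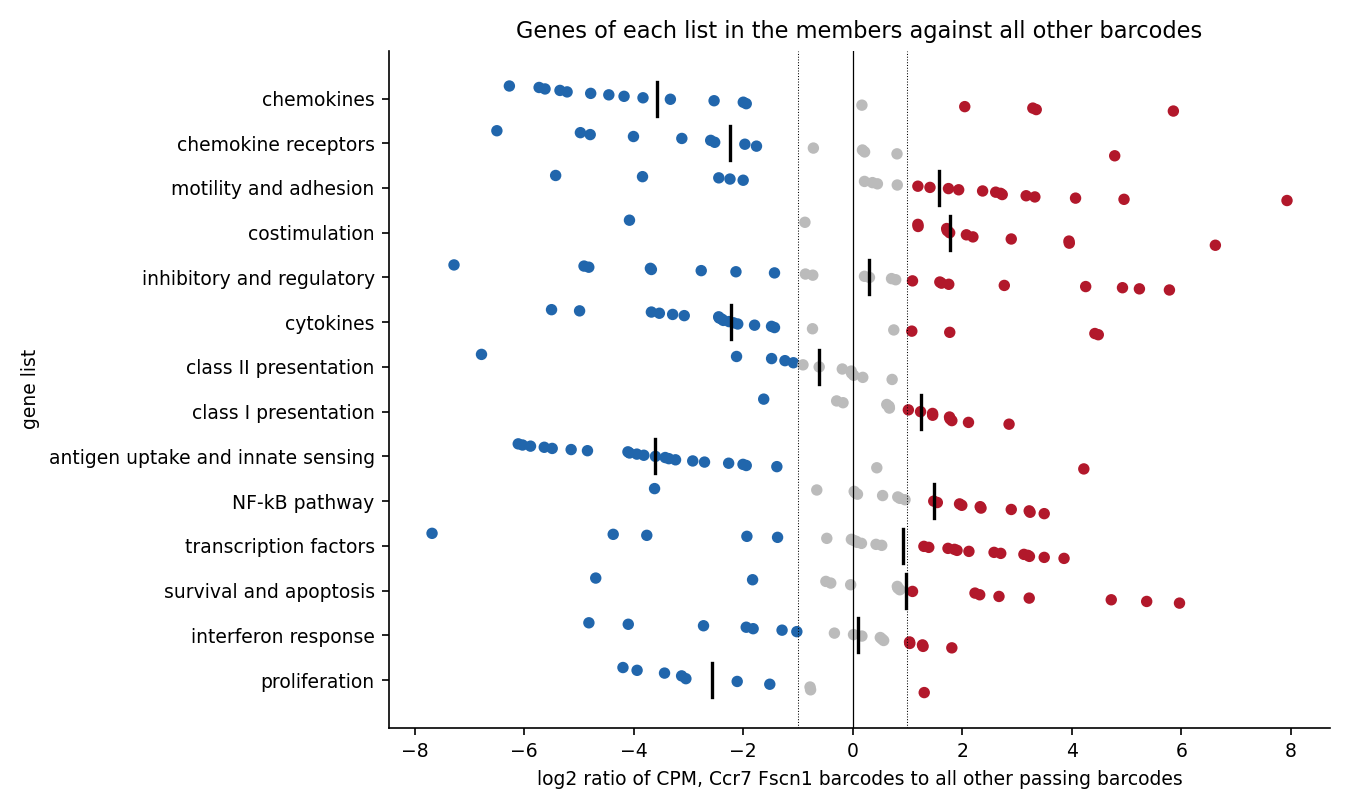
Log2 ratio of CPM in members to CPM in the other barcodes for each tested gene of 14 lists, with a black bar at the list median and dotted lines at 2-fold. Most costimulation, motility and class I genes lie to the higher side, with medians of 1.77, 1.58 and 1.24, and most chemokine and uptake genes lie to the lower side, with medians of -3.58 and -3.60.

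The NF-kB list had 10 genes higher and 1 lower of 19, with a median of 1.48. NF-kB is a family of dimers held inactive in the cytoplasm, and its non-canonical arm runs from receptors such as CD40 through the kinase NIK (Map3k14) to p100 (Nfkb2) and RelB. Relb had 153, 529, 613 and 591 CPM in the members by library, and the others had 44.8 to 57.7 CPM. The pooled log2 ratio was 3.50, and 96.0% of members had a Relb UMI against 19.2% of B-cell barcodes (thinned 42.7% and 4.35%). Map3k14 (278 CPM, 3.24), Birc2 (658 CPM, 3.22), which encodes an ubiquitin ligase that restrains NIK, and Nfkb2 (265 CPM, 2.34) were higher as well. Traf1 (1119 CPM, 2.33), an adaptor, and Rel (788 CPM, 1.99) and Nfkb1 (547 CPM, 1.48), subunits of the family, were also higher. Inhibitors of the pathway differed among themselves. Nfkbia had 1526 CPM in members and 1496 in the others (0.03), Tnfaip3 had 178 and 279 (-0.66), and Tnip3 was higher at 255 against 87.5 (1.55). Ikbke was the single lower gene, with 4 UMIs (-3.62, or -2.07 with no limit on C1q). Within library 3 and within library 4 alike, 9 of the genes were higher.

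Promoter stretches of this list are shown because NF-kB factors are known to read the motif in the promoters of their own pathway. The window searched ran from 250 bases before to 50 after the annotated start, for GGG, then any 2 bases, then TTTCC, on both strands, so that the other strand reads GGAAA, any 2 bases, CCC. Of the 16 list genes matched in the RefSeq promoter table of GRCm38.p6, 4 held a match (25%), namely Nfkb2, Rel, Nfkbia and Tnfaip3, against 512 of all 27025 genes in the table (1.89%). Of these 4, Nfkb2 and Rel were higher in members and the other 2 were not. Among the 25 genes with the greatest ratio, 23 were matched and 1 held the motif (4.35%). The stretches below are 60 bases on the strand of the gene, at chr19:46304677-46304736 for Nfkb2 (plus strand), chr11:23771026-23771085 for Rel, chr12:55492648-55492707 for Nfkbia and chr10:19015411-19015470 for Tnfaip3 (minus strand). Capitals mark the match.
Nfkb2: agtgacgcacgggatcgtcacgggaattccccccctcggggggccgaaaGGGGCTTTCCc
Rel: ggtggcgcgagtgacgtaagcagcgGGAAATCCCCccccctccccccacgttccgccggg
Nfkbia: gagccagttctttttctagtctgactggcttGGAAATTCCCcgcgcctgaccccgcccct
Tnfaip3: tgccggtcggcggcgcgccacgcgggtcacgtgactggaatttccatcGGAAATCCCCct
A match describes the letters only and is not a measured binding site. Nfkb2 has 3 annotated starts in the table, and the most downstream of them has a match before it, at chr19:46305680-46305739. The middle start lies just before the same match.
Nfkb2 downstream start: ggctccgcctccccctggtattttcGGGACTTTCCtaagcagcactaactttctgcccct

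Costimulation had the highest median of the 14 lists plotted above: 11 of 13 genes were higher, 1 was lower, and the median log2 ratio was 1.77. Cd70, the ligand of CD27 on T cells, had the greatest ratio, with 52.1 CPM against 0.528 (6.62). It was seen in a minority, since 15.6% of members had a UMI against 0.267% of B-cell barcodes (thinned 4.13% and 0%). Library 3 had 31.5 and library 4 had 69.7 CPM of Cd70, against 0.719 and 0.581 in the others, and without library 3 the ratio was 7.26. Cd40, the receptor that T cells engage through CD40L, had 0, 0, 230 and 263 CPM by library and a log2 ratio of 2.90 over all. The CD28 ligands Cd80 (256 CPM, 2.20) and Cd86 (367 CPM, 1.77) were higher, as was Cd83 (797 CPM, 1.73), a maturation marker. Cd80 was seen in 68.8% of members and Cd86 in 77.7%, against 5.34% and 33.0% of B-cell barcodes. The thinned shares were 23.9% and 27.5% in members and 0.603% and 9.78% in B-cell barcodes. Within both larger libraries 8 of the genes were called higher.

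Inhibitory and regulatory genes stood on both sides, with 9 of 23 higher, 8 lower and a median of 0.31. Il4i1, an amino acid oxidase that limits T cell proliferation, had 306, 156, 1054 and 1019 CPM in members by library, and the others had at most 32.4 CPM (log2 ratio 5.24). Socs2, a suppressor of cytokine signalling, had 918, 342, 737 and 699 CPM (4.25). Both were thus above the others in every library, with only 2 and 5 members in libraries 1 and 2. The PD-1 ligands were higher, Pdcd1lg2 at 158 CPM (2.77) and Cd274 at 632 CPM (1.59). Cd274 was seen in 89.7% of members and 28.8% of B-cell barcodes (thinned 41.3% and 7.90%). Aldh1a2, the enzyme that makes retinoic acid and is known from gut dendritic cells that imprint homing and regulatory T cells, had 24.5 CPM against 0.805 (4.93). Members with an Aldh1a2 UMI were 12.9% of all (thinned 1.38%), and 0 of 1499 B-cell barcodes had one, which allows up to 0.2%. Il10 had 2 UMIs in all members.

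Cytokines were mostly low against all other barcodes, with 4 of 22 genes higher, 16 lower and a median of -2.22. The 4 were Il15ra (154 CPM, log2 ratio 4.49), the chain that presents IL-15 to neighbouring lymphocytes, Il15 itself (46.3 CPM, 1.77), Il12b (4.42) and Ebi3 (48.5 CPM, 1.08). Il12b, the shared subunit of IL-12 and IL-23, had 0, 249, 298 and 276 CPM by library, and the others had at most 19.6 CPM. It was seen in 20.1% of members and 0.0667% of B-cell barcodes (thinned 7.80% and 0.067%). Without library 4 the ratios were 5.63 for Il12b, 2.46 for Il15 and 5.10 for Il15ra, and without library 2 Ebi3 fell under 2-fold (0.94). Its partner in IL-12, Il12a, had no UMI in any member. The partner in IL-23, Il23a, had 27 UMIs, of which 24 lay in 1 member, and its ratio went from -2.36 to -4.89 without library 3 and to -0.65 without library 4. Il1b was on neither side at 3903 CPM against 6486 (-0.73), and Tnf was lower (-3.08, or -1.94 with no limit on C1q).

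Class II presentation, by which antigen is shown to CD4 T cells, was not raised. Of 13 genes tested none was higher than in the other barcodes and 5 were lower, with a median of -0.61. The lower ones include March1, which acts against class II at the surface, and H2-Ob (-1.08, or 0.28 without library 3). H2-Ab1 had 76.5, 342, 1758 and 1821 CPM in members by library and the others had 192, 135, 2927 and 3335, so the members lay below in all but library 2. The values of libraries 1 and 2 come from only 2 and 5 members. The list summed over its genes was higher in members in libraries 1 and 2 (5434 against 1760 and 4483 against 1382 CPM) and lower in libraries 3 and 4, and 1 gene was called higher within library 4. H2-Aa had 3856 CPM against 3391 (0.18) and Cd74, the invariant chain, 9023 against 10288 (-0.19). March1, the ubiquitin ligase that removes class II from the surface of immature cells, had 1 UMI in all members, at 0.445 CPM (95% Poisson interval 0.0113 to 2.48), against 48.8 CPM in the others. The log2 ratio of March1 was -6.78 (95% interval -12.08 to -4.30), and its UMI lay in library 4. Without that library no UMI was left, and the floor of 3 counts gave a ratio of -3.38 or lower. With no limit on C1q the March1 ratio was -2.40, so its depth depends on that part of the rule.

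Set against 92 Xcr1 Clec9a barcodes and 166 Cd209a barcodes, class II lay further down. Against the first set 10 of the genes were lower and 1 was higher (median -1.71), where 23% of 9415 genes were lower and 17.8% higher. Against the second 9 were lower and none higher (median -1.37), where 22.4% of 9419 genes were lower and 15.1% higher. The level of H2-Ab1 was 7839 CPM in Xcr1 Clec9a barcodes and 5770 in Cd209a barcodes, against 1762 in members. Ciita, the master regulator of class II transcription, had 61.4 CPM in members, 203 and 169 CPM in those 2 sets and 62.2 in all the others.

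Class I presentation went the other way: 9 of 15 genes were higher and 1 lower, with a median of 1.24. The interferon-inducible proteasome parts led, with Psme2 at 1531, 872, 2172 and 1881 CPM in members by library, against 206 to 289 in the others (log2 ratio 2.86). Psmb8 (1767 CPM, 2.12), Psme1 (1.81), Psmb9 (1.78) and Nlrc5, the activator of class I genes (1.77), were higher. The peptide transporter genes Tap2 (1.46) and Tap1 (1.24) were higher too. The class I chain H2-K1 (0.67) and its partner B2m (0.62) stayed under 2-fold, though B2m reached 1.06 without library 4, and Calr, a chaperone, was lower (-1.62). H2-Q7, also higher, belongs to a family of near-identical genes between which reads may be divided.

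**Figure D3:**
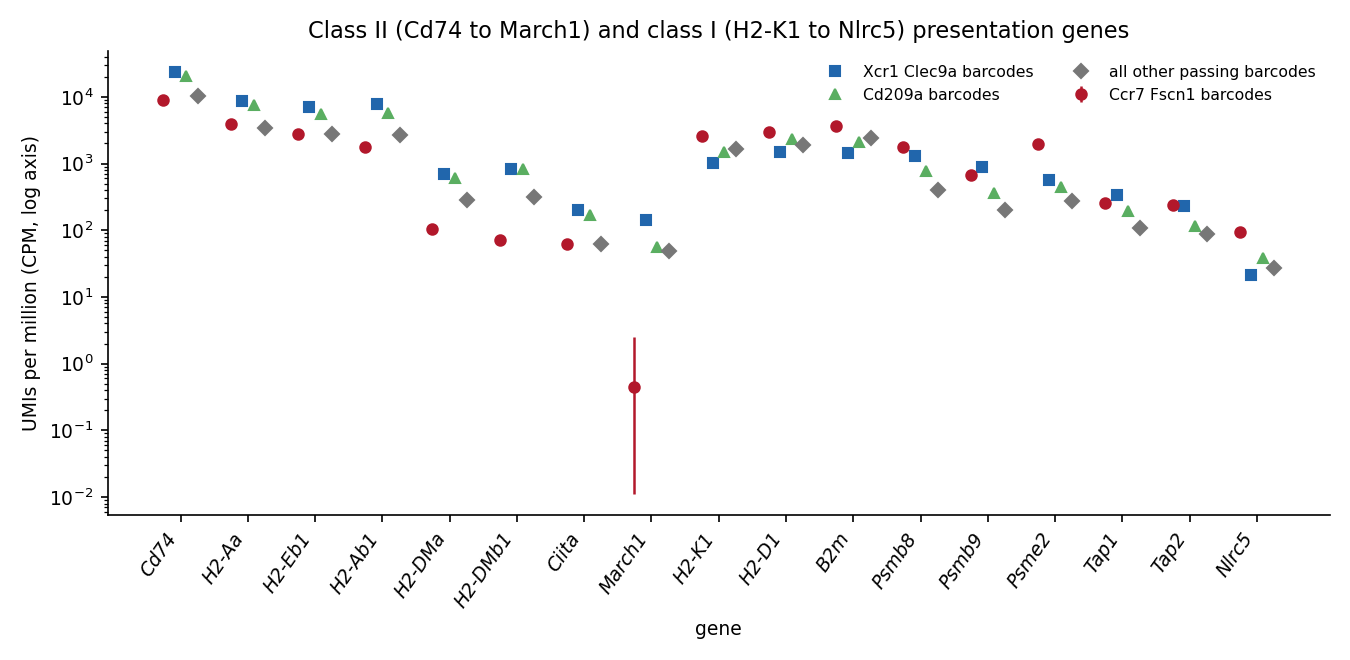
CPM of 8 class II and 9 class I presentation genes in members (bars, 95% Poisson interval), Xcr1 Clec9a barcodes, Cd209a barcodes and all other barcodes. The members lie below both dendritic sets for the class II chains, as for H2-Ab1 at 1762 against 7839 and 5770 CPM, and above them for Psme2 at 1992 against 572 and 449 CPM.

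Uptake and sensing genes were lower than in all other barcodes almost throughout, with 21 of 23 lower, 1 higher and a median of -3.60. The exception was Ly75, which encodes the endocytic receptor DEC-205, at 230, 62.3, 196 and 286 CPM by library against at most 14.1 in the others (log2 ratio 4.22). The scavenging and sensing genes Lyz2 (-6.11), Cd14 (-4.84) and Mrc1 (-3.94) were lower, as was the adaptor gene Tyrobp (-1.38). Without library 4 the ratios were -4.87 for Lyz2, -5.68 for Cd14 and -0.73 for Tyrobp, the last then under 2-fold. Mertk, Tlr7 and Clec4a2 had no UMI. The depth of these lows depends on the C1q limit of the rule. With the 13 barcodes left out by that limit alone let in, the ratios were -2.54 for Lyz2, -2.75 for Cd14 and -2.24 for Mrc1. In the same setting Mertk was at -1.63, Tlr7 at -2.16 and Clec4a2 at -2.67, all still at least 2-fold lower. Within both larger libraries 20 of the list were lower. Against Xcr1 Clec9a barcodes 9 of 18 genes were lower, 7 neither and 2 higher (median -1.30). Cd14 was level with that set (-0.03), and Lyz2 was at -1.97, or -0.84 without library 4. Against Cd209a barcodes 17 of 19 were lower and 1 higher (median -3.12). The list includes Clec9a and Cd209a, which chose these sets, so the place of each against its own set follows from that choice. The list summed to 1175 CPM in members, 1741 in Xcr1 Clec9a barcodes, 7394 in Cd209a barcodes and 8895 in all the others.

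Transcription factors gave 13 higher and 5 lower of 26, with a median of 0.92. Etv3 (759 CPM, log2 ratio 3.23), an ETS repressor, Stat4 (545 CPM, 3.13), which transmits IL-12 signals, Stat5a (2.70) and Nr4a3 (461 CPM, 2.58), an orphan nuclear receptor tied to dendritic cell migration, were higher. Stat4 had 689, 249, 369 and 694 CPM by library, above the 5.08 to 81.9 CPM of the others. The myeloid factors Cebpb (-4.37) and Zeb2 (-1.93) were lower. Without library 4 Cebpb was at -5.09 and Zeb2 at -1.19. With no limit on C1q Cebpb was at -2.97.

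Survival genes were higher in 8 of 16 and lower in 2, with a median of 0.98. Serpinb9, an inhibitor of granzyme B, had 761 CPM (4.72), and Bcl2a1d (2.67) and Bcl2a1b (2.32) are near-identical copies whose reads may be divided between them. Serpinb9b (5.97) had 46 UMIs, of which 30 lay in 1 member, and its ratio was 6.82 without library 3 and 4.83 without library 4. Bcl2 was lower (-4.69) and Mcl1 was level (-0.04). In the metabolic list 4 of 13 were higher and 4 lower, the former being Aldh1a2, Il4i1, Apol7c (328 CPM, 3.41), an apolipoprotein L, and Kynu (2.23), an enzyme of tryptophan breakdown. Apol7c had 503 CPM in library 3 and 197 in library 4, and 28.6% of members had a UMI against 0.934% of B-cell barcodes (thinned 13.3% and 0%). The pooled ratio was 2.47 without library 3 and 5.04 without library 4. Apoe was lower (-6.59, or -2.08 with no limit on C1q).

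Interferon response genes were divided, with 5 of 18 higher, 7 lower and a median of 0.09. Within library 3 there were 3 higher and 5 lower and within library 4 there were 2 and 4, of which 1 higher and 2 lower were called in both. Proliferation genes were lower in 7 of 10, among them Top2a (-3.12), and the single higher gene was Tubb5, a tubulin (1.31). Stress genes gave none higher and 7 lower of 12.

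The targeted gene of the study could not be followed in these cells. Egfr had no UMI among the 2247775 of the members, which allows up to 1.33 CPM, and the same held for Erbb2, Erbb4, Ereg and Tgfa. Of the 9 EGFR family and ligand genes tested 1 was higher and 4 lower. The higher one was Egf, the ligand epidermal growth factor, with 58 UMIs in all. It had 76.5, 125, 16.3 and 30.4 CPM in members by library and 0.847 to 1.6 CPM in the others, and 12.9% of members had a UMI against 1.33% of B-cell barcodes (thinned 5.05% and 0.201%). The levels of libraries 1 and 2 rest on few Egf UMIs. The Egf ratio was 4.55, and 5.24 without library 3 and 3.90 without library 4. Areg, another ligand, had 139 CPM, with 121 of its 313 UMIs in 1 member. Its direction was opposite in the larger libraries, with 217 against 101 CPM in library 3 and 82.0 against 172 in library 4. The library 3 level rests largely on that 1 member, which held 121 of the 213 Areg UMIs there. In library 4 the richest member held 48 of 100. Areg was seen in 7.69% of members of library 3 and 11.9% of those of library 4, so the opposite direction is not a trait of many members. Nrg1, a ligand of the related ERBB receptors, had 43.6 CPM against 40.2.

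Among the greatest ratios of members to Xcr1 Clec9a barcodes were Ccl5 (log2 ratio 9.89), Socs2 (8.50), Fabp5 (8.30), Cacnb3 (7.88), the tetraspanin Cd63 (7.73) and Il4i1 (7.56). Their order is not fixed: without library 4 they were 10.39, 8.15, 9.90, 9.01, 8.45 and 9.63. Fscn1 had no UMI in the Xcr1 Clec9a set, so its ratio was at least 10.26 on the log2 scale. NF-kB genes were higher in 17 of 18 against this set and in 5 of 19 against Cd209a barcodes, with none and 2 lower. Cytokines, mostly lower against all other barcodes, were higher in 9 of 16 and lower in 2 against the Xcr1 Clec9a set. Chemokines were higher in 8 of 14 and lower in 2 there, and chemokine receptors higher in 6 of 12 and lower in 4. The receptor list includes Ccr7, which chose the members, and Xcr1, which chose the Xcr1 Clec9a set. Against Cd209a barcodes 6 of 16 cytokines were higher and 8 lower. Chemokines gave 6 and 6 of 15, and receptors 6 and 7 of 13. Of all genes, 17.8% were higher and 23% lower against the first set, and 15.1% and 22.4% against the second. Lowest against the Xcr1 Clec9a set were March1 (-8.30, 95% interval -13.61 to -5.82), Sult1a1 (-7.54, -12.85 to -5.04), a sulphotransferase gene, each with 1 UMI in members, and Itgae (-6.73), which encodes the integrin chain CD103. At the floor of 3 counts, March1 was at -5.22 or lower without library 4 and Sult1a1 at -5.56 or lower without library 3. Itgae was at -6.06 without library 4. Batf3 was level between the sets (230 against 213 CPM) and Irf8 was lower in members (718 against 1520 CPM).

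Against Cd209a barcodes the greatest ratios were those of Apol7c (9.41, 95% interval 6.92 to 14.71), Fscn1 (9.29), Nudt17 (8.94, 6.45 to 14.24) and Tcf7 (8.0, 5.51 to 13.31), a transcription factor better known from T cells. All but Fscn1 had 1 UMI in the Cd209a set, so their intervals are wide. Without library 4 that UMI was gone, and the floor of 3 counts gave at least 6.69 for Apol7c, 6.23 for Nudt17 and 5.10 for Tcf7. Without library 3 they were 8.10, 7.63 and 7.08. Lower were Ly6c2, a monocyte gene with 3 UMIs in members (-8.0, -10.28 to -6.45), and March1 (-7.0, -12.32 to -4.49, and -4.30 or lower at the floor without library 4). The Cd209a set also carried plasmacytoid genes, with 293 CPM of Siglech and 185 of Cox6a2, so it is not a single subtype.

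Members were not alike among themselves. After each barcode was thinned to 2000 UMIs, which left 210 members, the median variance-to-mean ratio of 1431 genes was 1.2, near the value of 1 that counting alone gives. The neutrophil genes S100a9 (93.1) and S100a8 (65.5) headed the order and rest on few barcodes, 1 of which is named above for its share of neutrophil UMIs. Gm42418 (65.0), which overlaps ribosomal RNA, and Malat1 (56.0) followed. Of the secreted factors Cxcl2 (51.5), Il1b (26.5), Ccl5 (21.1) and Ccl22 (19.3) varied most. The highest thinned counts of Cxcl2 (102 UMIs) and of Il1b (113) were in the same member of library 4. Without members that held 10 or more UMIs of another lineage, the Cxcl2 log2 ratio to the others went from -3.83 to -4.94. Much of its level thus lay in a few such barcodes.

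Class II level varied widely across single members. H2-Aa and H2-Eb1 followed each other with a Spearman correlation of 0.90 over the 210 members, a description across cells that share libraries and depth. In the 56 members with the least class II (0 to 5 of 2000 UMIs from H2-Aa, H2-Ab1, H2-Eb1 and Cd74) the mean was 1.54 UMIs of Il1b and 12.5 of Ccl5. In the 54 with the most (50 to 145 UMIs) it was 16.4 of Il1b and 6.54 of Ccl5. Members rich in class II thus held more Il1b and less Ccl5, in libraries pooled, and Il1b was also higher in library 4 as a whole. Epsti1, an interferon-responsive gene, had 2.98 and 0.685 UMIs, Fabp5 11.4 and 21.6, and Ccl22 1.73 and 4.63, in the same order. Both sets drew on both libraries, with 25 and 27 members of libraries 3 and 4 in the first and 22 and 31 in the second.

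The correlations differed in size between class II genes and between libraries. H2-Ab1 against Epsti1 gave a Spearman correlation of -0.41 in all, -0.45 in the 86 members of library 3 and -0.37 in the 118 of library 4, and H2-Aa against Epsti1 gave -0.25, -0.22 and -0.24. For H2-Ab1 against Ccl5 the values were -0.37, -0.42 and -0.35, and for H2-Aa they were -0.20, -0.20 and -0.19. H2-Eb1 and Cd74 lay between, at -0.26 and -0.27 against Ccl5 in all. Il1b against H2-Aa was 0.42 in all, but 0.22 in library 3 and 0.58 in library 4. Ccl22 against H2-Aa was 0.14 in all, -0.02 in library 3 and 0.20 in library 4, so its gap between the sets was not shared by both libraries on this measure. Ccl5 and Epsti1 varied together across members, with 0.51, 0.57 and 0.39. Fscn1 and Ccr7, the 2 genes that chose the members, gave 0.02 in all, -0.02 in library 3 and -0.01 in library 4.

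**Figure D4:**
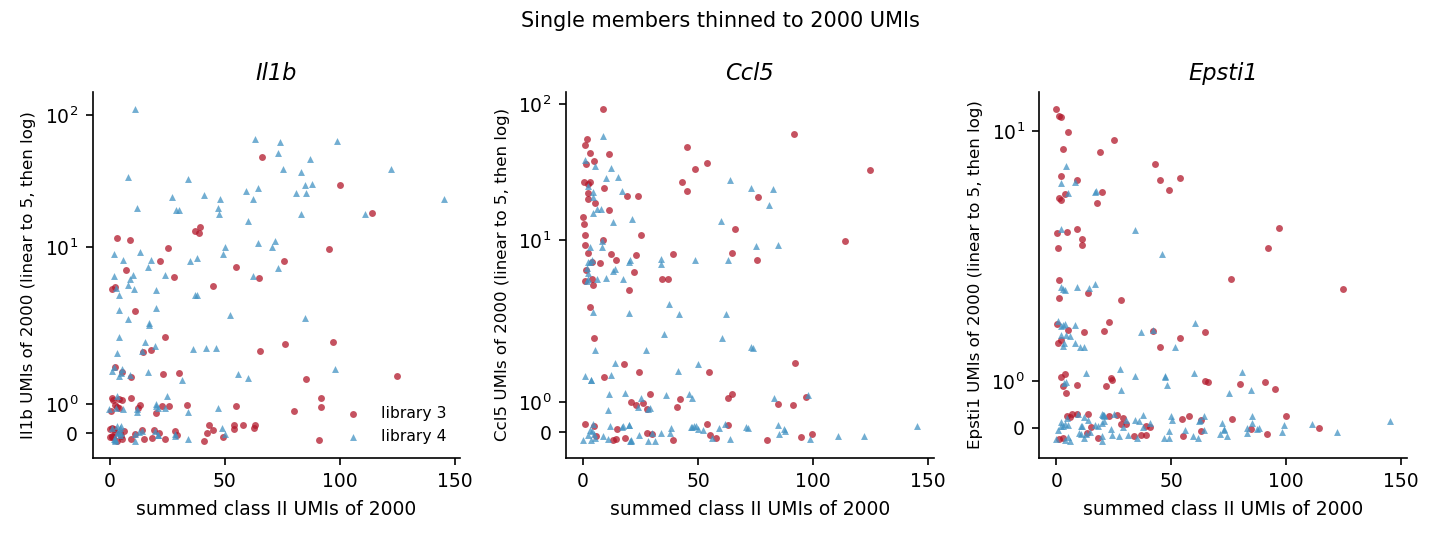
UMIs of Il1b, Ccl5 and Epsti1 per member against summed class II UMIs (H2-Aa, H2-Ab1, H2-Eb1 and Cd74), each barcode thinned to 2000 UMIs, with points jittered and axes linear near 0 and logarithmic above. Library 3 is drawn as circles and library 4 as triangles. Il1b is higher to the right, with means of 1.54 and 16.4 UMIs in the 56 members with the least class II and the 54 with the most, and Ccl5 and Epsti1 are higher to the left.

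Several genes were present in a minority of members, and the members with and without a UMI were set side by side. The genes that went with each split are given after their values were seen. Members with Il12b numbered 45, with a median of 13533 UMIs against 9682 in the rest, and the 5 richest held 54.1% of its UMIs. They had 1015 CPM of Ccl17 against 466 (log2 ratio 1.12), which was 637 against 463 in library 3 and 1315 against 486 in library 4. They also had 304 CPM of Bcl2l14 against 37.8 (3.01) and 409 of Procr against 103 (2.00). They had less S100a4 (503 against 1558 CPM) and less Fabp5 (4239 against 10142 CPM). In this split 3.78% of genes were higher and 5.3% lower. The Bcl2l14 difference was present in library 3 (195 against 36.0 CPM) and in library 4 (382 against 36.5 CPM). Procr was under 2-fold in library 3 (195 against 101 CPM) and differed more in library 4 (577 against 107 CPM).

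Members with Cd70 numbered 35, and 25 of them were in library 4. Their Cd40 was 541 CPM against 171 in the rest (log2 ratio 1.66), and in library 3 it was 582 against 173 and in library 4 it was 529 against 177. Ccl22 was 3558 against 1708 CPM (1.06) and Ccl17 was 1272 against 456 (1.48). Ccl5 was the reverse, at 1412 against 4291 CPM (-1.60). The Cd70 split had 3.08% of genes higher and 4% lower, and Cxcl9, at 488 against 118 CPM in all, differed little in library 3 (81.0 against 54.3 CPM).

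Members with Aldh1a2 numbered 29 and had 2150 CPM of Ccl5 against 4067 and 611 of Psap, a lysosomal sphingolipid activator, against 271. Ifitm1 was 446 against 1560 CPM, lower in both libraries, and 3.27% of genes were higher and 4.09% lower. Egf was found in 29 members, which had 427 CPM of Prnp against 108 (log2 ratio 1.98), 287 of Tcf7 against 104 (1.46) and less Ccl22 (942 against 2199 CPM). Here 3.55% of genes were higher and 3.2% lower. Apol7c was found in 64 members, 37 of them in library 3, and 3.2% of genes were higher and 5.06% lower. Their Ccl17 was 894 CPM against 465 (log2 ratio 0.94, under 2-fold), with 809 against 227 in library 3 and 1033 against 615 in library 4. A Ccl17 UMI was seen in 46.9% of them and 46.25% of the rest. Nudt17 was 374 against 162 CPM, with 459 against 271 in library 3 and 237 against 108 in library 4.

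Libraries 3 and 4 were alike for most genes of the members: of 2735 genes with at least 100 UMIs, 94.2% lay within 2-fold, 1.86% were higher in library 3 and 3.95% higher in library 4. Since the libraries are unassigned, a difference between them cannot be told apart from sort, genotype or handling. Genes were named here after their values were seen. Higher in library 4 were Cxcl9 (58.0 against 303 CPM, log2 ratio -2.39) and Tnip3, an NF-kB inhibitor (109 against 381 CPM, -1.81). In the other barcodes Cxcl9 was also higher in library 4 (113 against 229 CPM, -1.015). Of its 369 UMIs in the members of library 4, 83 lay in 1 member. Tnip3 was seen in 40.7% and 70.6% of members and 1.33% of B-cell barcodes, and in the other barcodes of the 2 libraries it differed by the same order (-1.90). Cxcl2 (83.4 against 880 CPM, -3.40) had 309 of its 1073 UMIs of library 4 in 1 member, and Cxcl10 (-3.10) had 133 of 202. Gm42418 and AY036118, which overlap ribosomal RNA, were higher in library 4 in members (-1.97 and -3.49) and in the others (-1.74 and -3.03) alike. Il1b was 2012 CPM in library 3 and 5554 in library 4.

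Higher in library 3 were Epsti1 (1187 against 422 CPM, 1.49), seen in 82.4% and 54.0% of members, and Apol7c (503 against 197 CPM, 1.35), seen in 40.7% and 20.6%. In the other barcodes the log2 ratio was -0.07 for Epsti1 and -1.0 for Apol7c, so neither difference was shared by the rest of the library. Ccnd1, a cyclin, was 2.06 in members and -0.53 in the others. Nudt17 was higher in library 3 among members (362 against 140 CPM, 1.37) and among the others (1.23). Slco5a1, a transporter, was seen in 46.2% and 19.8% of members and 0.467% of B-cell barcodes (1.84). Ccl5 was 5249 against 2543 CPM. Clu (2.32) had 102 of its 245 UMIs of library 3 in 1 member.

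**Figure D5:**
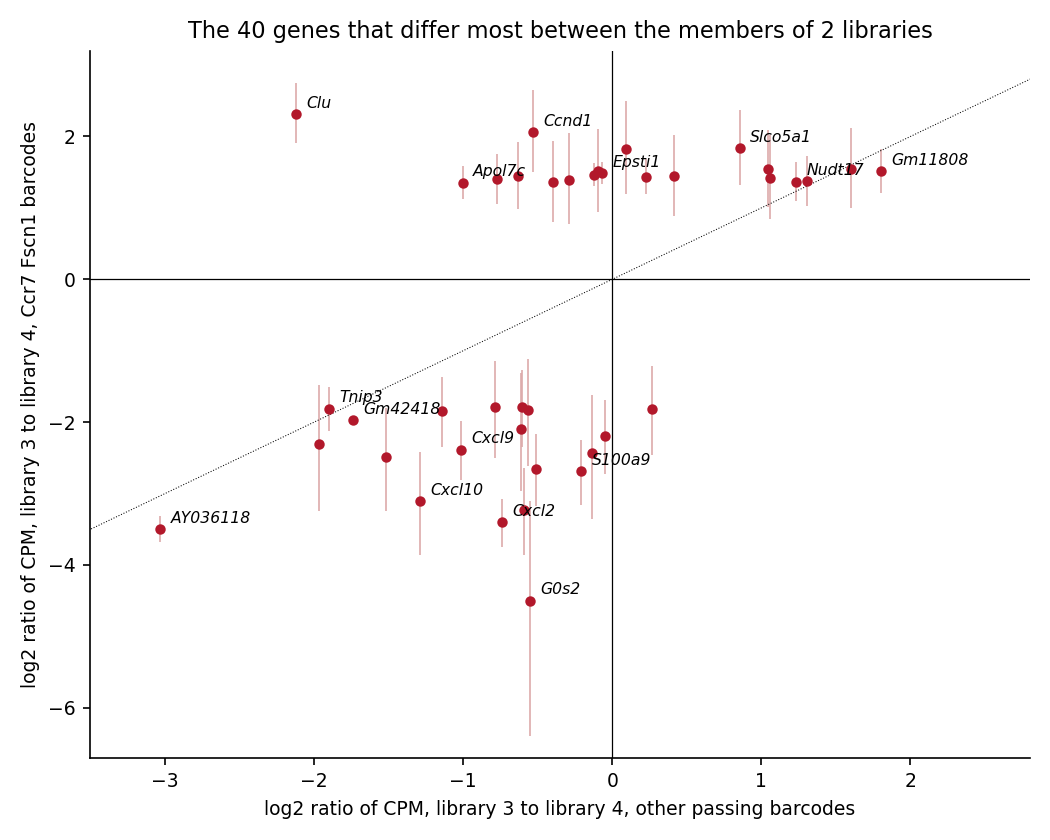
Log2 ratio of library 3 to library 4 in members (vertical) against the same ratio in the other barcodes (horizontal) for the 40 genes that differed most in members, with bars for 95% intervals and a dotted line where both are equal. Gm42418 and Tnip3 lie near the line, at -1.97 against -1.74 and -1.81 against -1.90, and Epsti1 and Apol7c lie above it, at 1.49 against -0.07 and 1.35 against -1.0.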

How the data were processed

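Raw UMI counts were deposited by the authors as 1 UMI count matrix of 31053 genes and 18026 barcodes with 4 library suffixes. Per the submitters' processing notes they come from Cell Ranger 3.0.2 and mm10, and per the labels' protocols from 10x Chromium 3′ libraries. Strand handling was not given in the sources used here. Barcodes were kept with at least 500 UMIs, at least 200 genes and at most 20% mitochondrial UMIs (14198 of 18026). The passing barcodes of libraries 1 to 4 numbered 594, 1706, 4516 and 7382. No sample was mapped to a suffix, so no groups were formed.

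Counts were summed per set and divided by the total of the set. Ratios carry a conditional binomial interval and CPM a Poisson interval, both at 95%, for counting error only. A gene at 0 was given a floor of 3 counts. Members and lists were chosen with earlier results of these data known. Genes were named as the lists' members, the 25 highest and 10 lowest ratios to the others and the 15 most variable genes, beside the 10 highest and lowest against each dendritic set. Xcr1 Clec9a barcodes held Xcr1 and Clec9a UMIs and Cd209a barcodes at least 2 of Cd209a. Scrublet in Scanpy 1.11.5 called 10 doublets (0.0704%), which is too few to have worked, so none was removed. There were 24 barcode sequences with more than 1 suffix, 2 members among them. Scripts (Python 3.11.15, numpy 2.4.6, pandas 2.3.3, scipy 1.17.1) were tested on simulated data. Ccl19, Ccl21a, Ifi30 and Clec7a were not analysed here, and values of some listed genes are not reported here. Alternatives covered the filters, the thresholds of the rule, thinning, a pseudocount and leaving out each library.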

Additional observations from a re-analysis of the deposited data

How the results depend on the processing

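Each library stands alone, so the alternatives show how far a description moves and not whether a difference exceeds replicate error. No paired analysis was possible because each group has 1 sample and the barcodes carry no replicate number. Leaving out libraries 1 and 2 together and leaving out members with 10 or more UMIs of another lineage were chosen after seeing the data. The number of members (224) ranged from 98 to 222 when 1 library was left out, with 133 without library 3 and 98 without library 4, and was 138 without members that held 3 UMIs of another lineage. In 11 other settings it stayed within 1.5 times.

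Genes higher than in all other barcodes numbered 1224, and 743 with 10 CPM added, 2049 with no minimum of UMIs and 797 after thinning to 1000 UMIs. Genes lower numbered 3370, and 1462 with 10 CPM added, 1921 with a minimum of 30 UMIs, 871 after thinning, 1978 within library 3 and 2094 within library 4, where fewer barcodes were counted. Against Xcr1 Clec9a barcodes 1679 genes were higher, and 891 with 10 CPM added and 909 after thinning. Against Cd209a barcodes 1425 were higher, and 666 and 771 in the same settings. Thinning and the smaller libraries leave fewer UMIs per gene, which limits how many genes can be called.

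Of 5260 alternative ratios for 143 named or listed genes, 3633 stayed within their counting interval, 1619 moved beyond it and 8 reversed. Shifts over 1.5 times were seen in 129 of 348 ratios after thinning, with 19 calls lost, in 128 of 394 with 10 CPM added, with 20 lost, in 65 of 137 with each library of the others weighted equally, with 3 lost, and in 135 of 380 without library 4, with 9 lost. With no limit on C1q such shifts were seen in 23 of 138 ratios, with 1 call lost. After thinning Fas was at -0.343 and Mki67 at 0.088 against the others, and Apoe at 0.366 against Cd209a barcodes. Cd209a, which the lists name and which is near absent from members, was at 0.864 with Fscn1 at 1 UMI or more. With Fscn1 at 3 UMIs or more Epcam was at -1.670 against Cd209a barcodes. On leaving out 1 library at a time H2-Ob against the others ranged from -2.093 to 0.276 (without library 3), Cxcl2 against Xcr1 Clec9a barcodes from -0.076 (without library 4) to 1.912, and Epcam against Cd209a barcodes from -1.711 (without library 2) to 1.971. The cause was not tested.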
